A study of Homo sapiens with 12 samples.

Results

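The cytosolic ribosomal proteins are the protein subunits of the ribosomes that translate nuclear mRNA. Their genes were taken by symbol: RPL or RPS followed by a protein number and its suffix, RPLP0 to RPLP2, and RPSA, leaving out RPS6 kinases and numbered pseudogenes. The rule found 84 of the 16020 genes in the table: 43 proteins of the large subunit, 31 of the small subunit, 3 of the P stalk and 7 paralogs, which are second genes that encode a close relative of a standard protein. Of these, 83 had enough counts to be tested. RPL3L, the muscle relative of RPL3, had 54 counts over all libraries and was not tested.

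The study grew AU565, a human breast cancer line with amplified ERBB2, in 4 culture formats with 3 RNA-seq libraries each: monolayer, small spheroids, large spheroids and capsules. The labels give all cells as WT. The treatment label is identical in all 12 libraries, also in monolayer: trastuzumab, which is an antibody against ERBB2, then liquid overlay and 5% matrigel, with 96 h before RNA was taken. No untreated cells are among these groups. AU565 is a single line, and the labels do not say whether the 3 libraries of a format came from separate cultures, so the p-values rest on a spread between libraries that may be technical.

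Cells make ribosomal proteins in near equal amounts, 1 copy of each for every subunit in most cases, and their mRNAs are among the most abundant in growing cells. Most of these mRNAs begin with a C followed by a run of pyrimidines, the 5′ terminal oligopyrimidine (TOP) motif, through which mTORC1 and LARP1 control their translation and stability. Several members have a second role: RPL5 and RPL11 bind MDM2 with 5S RNA when assembly fails, RPS6 is the substrate of the S6 kinases, and the P stalk of RPLP0, RPLP1 and RPLP2 recruits the GTPases of elongation.

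Libraries held 13971346 to 24729250 counts. Capsule 1 stood apart from its partners: the chi-square per gene was 39.1 and 34.6 against capsules 2 and 3, which gave 2.99 between them, and over member genes 144 and 131 against 18.4. Its level was above both partners in 50 of 83 members and below both in 24. The shares of all genes are not given, so these counts do not set the members apart from the rest. Only monolayer and large spheroid titles hold the word UP, which the labels do not explain. It is shared within the comparison of large spheroids with monolayer and absent from that of capsules with small spheroids, and in the other 4 comparisons it cannot be told apart from the format. All 12 luminal markers were in the table, at 13300 to 21900 CPM in sum. CPM are counts scaled to the library total for these marker sums, and to the TMM-adjusted library size for the levels of single genes below. Melanocyte markers (5 of 6 in the table, DCT absent) summed to 52.9 to 114 CPM in monolayer, 5.98 to 7 in small spheroids, 22.5 to 28.6 in large spheroids and 6.46 to 7.75 in capsules. Mesenchymal markers (6 of 8, LUM and DCN absent) summed to 68.5 to 128 CPM in monolayer and 31.1 to 69.8 in the other formats, and cardiac markers (5 of 8) to 188 in monolayer 1 and 2, 62.7 and 49.4 in large spheroid 1 and 2, and 1.18 to 5.65 elsewhere. Of 4 blood markers CD74 was in the table, at 0.495 to 4.07 CPM, and PTPRC, CD3E and HBB were not. Their part in the results below was not tested.

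The first bases of the RNA were read from the RefSeq promoter table (GRCh38.p14) for 67 of the 84 members. The motif searched was C followed by at least 4 more C or T, on the transcribed strand. It began exactly at an annotated start in 47 of the 67 (70.1%), against 5.14% of 27303 genes in the table, and within 5 bases of a start in 54 (80.6%), against 25.2% of all genes. A gene counts where any of its listed starts holds it. Among members other than paralogs 46 of 62 held the motif at the start, and of 5 paralogs 1 did. The windows below run from 5 bases before the start to 20 after, with the motif in capitals, and are shown because they belong to the members with the largest changes and to 3 paralog pairs.
RPS27, chr1:153990757-153990781, plus strand: tcgctCCTTTCCggcggtgacgacc
RPS27L, chr15:63157458-63157482, minus strand: cgagcgcagatcgcttgcagcttgc
RPL26, chr17:8383174-8383198, minus strand: tagttCTCTTCCCTTTTgcggccat
RPL26L1, chr5:172958724-172958748, plus strand: gggtcggcgaacgaaacgcggagct
RPL22, chr1:6199576-6199600, minus strand: acctcCCTTTCTaactccgctgccg
RPL22L1, chr3:170870176-170870200, minus strand: gcttcCTCTCTgctctcgcggccga
RPS21, chr20:62387098-62387122, plus strand: tgcttCCTTTCTCTCTCgcgcgcgg
RPL41, chr12:56116628-56116652, plus strand: cctttCTCTCggccttagcgccatt
RPL13, chr16:89560677-89560701, plus strand: gcttcCTTTCCgctcggctgttttc
RPS26, chr12:56041913-56041937, plus strand: acctcgattttcttccgccatccgg
RPL7L1, chr6:42879611-42879635, plus strand: gcgccgtagctaggagcggacgcca
Of the 3 pairs, RPL22L1 holds a TOP motif like its standard partner RPL22, while RPL26L1 and RPS27L hold none in this window and RPL26 and RPS27 do. RPL7L1 holds none either, and RPS26 none within 5 bases of the start, though a short match begins 6 bases after it. Both were lower in some formats than in monolayer. RPS21, RPL41 and RPL13, among the members that rose most, hold one. Other printed members go the other way. RPL22 holds one and was lower in small spheroids than in monolayer, a fall that changed sign in a corrected fit given below. RPL26L1 and RPS27L hold none and were higher in capsules than in monolayer. For RPL13 and RPL26L1, which have several listed starts, the one printed is the start with the motif or, where none has it, the first. Over all members with a window, the median log2 fold change of the 54 with the motif was 0.65 in small spheroids, 0.54 in large spheroids and 0.73 in capsules against monolayer, and that of the 13 without it 0.30, 0.41 and 0.49. The sets differ in their share of paralogs, and no test was made.

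Ribosomal protein genes took a larger share of all counts in each 3-dimensional format than in monolayer. They made up 3.66, 3.84 and 3.67% of counts in the monolayer libraries, 5.28, 5.74 and 5.36% in small spheroids, 4.89, 4.83 and 5.45% in large spheroids, and 5.5, 5.3 and 5.55% in capsules. The means were 3.73 ± 0.103% in monolayer, 5.46 ± 0.245% in small spheroids, 5.06 ± 0.34% in large spheroids and 5.45 ± 0.135% in capsules (SD, n = 3). No library of the 3 formats came near monolayer, and the 3 formats overlapped each other. The exact (Clopper-Pearson) 95% interval of small spheroid 2 ran from 5.73 to 5.75%, narrower than the spread between libraries, and covers counting error only. A share has no test here, since it is a sum over chosen genes. In bulk RNA, a change per cell and a change in the mix of cells cannot be told apart.

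**Figure D1:**
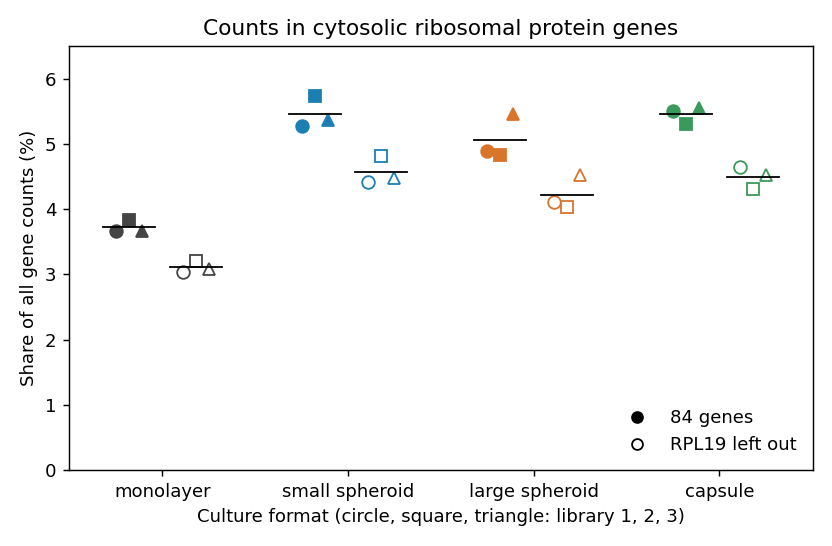
Share of all gene counts in the 84 ribosomal protein genes (filled, y axis in percent) and without RPL19 (open), for each library in the 4 culture formats, with black lines at the mean of 3. Monolayer libraries lie between 3.66 and 3.84% and every library of the other formats lies at or above 4.83%.

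RPL19, a protein of the large subunit, alone held 15.5 to 18.8% of the members' counts. Its level was 5920, 6139 and 5683 CPM in monolayer, 9002, 9923 and 9367 in small spheroids, 7617, 7849 and 9131 in large spheroids, and 8510, 9845 and 10270 in capsules. All 9 libraries of the other formats were above the 3 of monolayer. Per kilobase of transcript its mean level over formats was 11220 CPM, 3.75 times that of the next member, RPS14. RPL19 lies at chr17:39200283-39204732 (GRCh38.p14), 483 kb from ERBB2, the gene amplified in this line. Its log2 fold change against monolayer was 0.67 in small spheroids (adjusted p = 2.64e-06), 0.47 in large spheroids (adjusted p = 0.00021) and 0.69 in capsules (adjusted p = 2.84e-06, edgeR quasi-likelihood), close to the members' medians below. After correction for GC content and length it did not pass in small spheroids (0.16) or capsules (0.12). Without RPL19 the share was 3.11 ± 0.0832% in monolayer, 4.57 ± 0.216% in small spheroids, 4.22 ± 0.266% in large spheroids and 4.49 ± 0.172% in capsules.

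Member by member, 82 of the 83 tested genes differed among the 4 formats (edgeR, adjusted p below 0.05), as did 90% of all 15175 tested genes. Against monolayer, 69 of 83 members were higher in small spheroids and 4 were lower, where 37% of all genes were higher and 35.3% lower. In large spheroids 69 were higher and 6 lower, where 28.7% of all genes were higher and 28.4% lower. In capsules 67 were higher and 4 lower, where 34.5% of all genes were higher and 31.5% lower. The members' median log2 fold changes were 0.65, 0.50 and 0.73 in that order, and those of all genes 0.01, 0.00 and 0.04. These 3 comparisons share the monolayer libraries. Most rises were modest: 21 members in small spheroids, 3 in large spheroids and 20 in capsules rose at least 2-fold. The lowest mean of the 4 formats was in monolayer for 71 of 83 members (85.5%), against 30.1% of all tested genes. The highest was in capsules for 37 (44.6%), in small spheroids for 27 (32.5%), in large spheroids for 16 (19.3%) and in monolayer for 3 (3.61%). Of all tested genes 22.1, 27.6, 21.9 and 28.3% had theirs in these formats, so the shares for both spheroid formats were near those of all genes.

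GC content moved with these fold changes. Spearman's rho of the log2 fold change with GC content, across genes, which are not independent replicates, was 0.68 for all genes and 0.48 for members in small spheroids, 0.20 and 0.00 in large spheroids, and 0.43 and 0.07 in capsules. The members' median GC content was 49.6%, against 49.9% for all genes, and their median transcript length 815 bases, against 2775. In a fit corrected for both, 56 members were higher and 8 lower in small spheroids, 63 higher and 6 lower in large spheroids, and 46 higher and 17 lower in capsules, with medians of 0.38, 0.39 and 0.27. Of all 14638 genes in that fit 29.9% were higher and 31.6% lower in small spheroids, 30.5 and 31% in large spheroids, and 31.5 and 32.2% in capsules. Of 163 calls named in the text 19 were lost under the correction, 13 changed sign, and 54 stayed called with a value over 1.5 times larger or smaller. In 14 of these 54 the corrected value was the larger in size. Without capsule 1, 68 members were higher in capsules and 4 lower, and the share of all genes called in that run is not given.

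**Figure D2:**
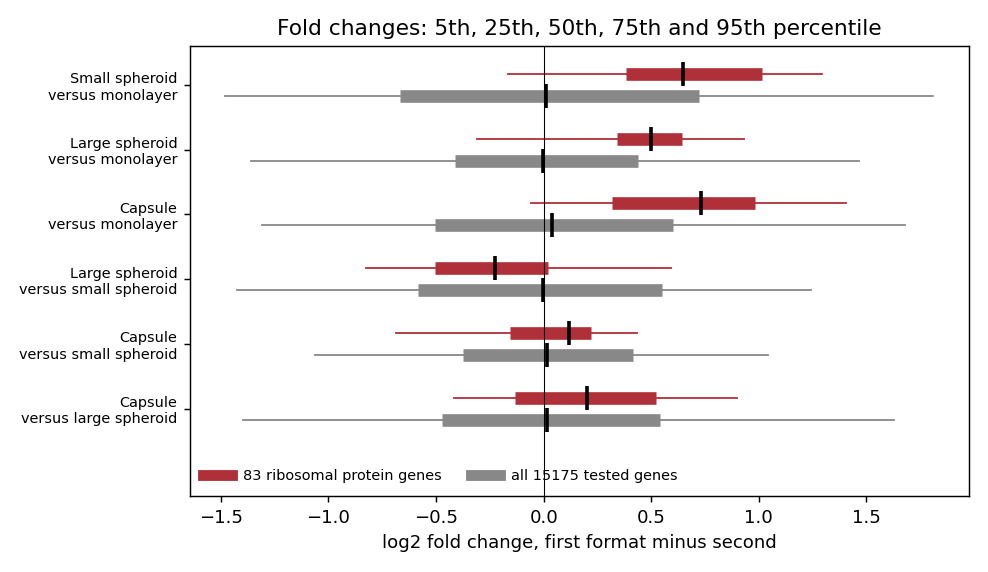
Log2 fold changes (x axis, first format minus second) of the 83 tested ribosomal protein genes (red) and all 15175 tested genes (grey) in each comparison. Thin lines run from the 5th to the 95th percentile, bars from the 25th to the 75th, and black ticks mark the medians, which for the members lie at 0.65, 0.50 and 0.73 against monolayer.

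In the large subunit, 36 of 43 members rose in small spheroids and 2 fell, 37 rose and 2 fell in large spheroids, and 34 rose and 2 fell in capsules. RPL7, a large subunit protein, was high in small spheroids and capsules. Its level was 142.2, 149.7 and 120.1 CPM in monolayer, 358.7, 462.4 and 405.9 in small spheroids, 183.9, 142.9 and 149.9 in large spheroids, and 343.6, 484.1 and 519 in capsules. Monolayer and large spheroid libraries overlapped, and all 6 others lay above them. It rose by 1.57 ± 0.14 on the log2 scale in small spheroids (adjusted p = 3.52e-08) and 1.71 ± 0.14 in capsules (adjusted p = 2.12e-08), and the large spheroid value of 0.21 ± 0.14 did not pass (adjusted p = 0.215). The differences between formats passed as well: large spheroids were lower than small ones by -1.36 (adjusted p = 3.46e-07), and capsules higher than large spheroids by 1.498 (adjusted p = 1.07e-07). Its GC content is 43.1%, and the corrected fit gave 1.85, 0.23 and 1.60 against monolayer.

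RPL13 and RPL41 rose in each format against monolayer. RPL13 had 371, 353.6 and 332.3 CPM in monolayer, 944.4, 1064 and 978 in small spheroids, 698.9, 627.2 and 693.6 in large spheroids, and 568.1, 643.3 and 647 in capsules. It was highest in small spheroids, and the large spheroid and capsule libraries overlapped. Its log2 fold changes were 1.499, 0.93 and 0.81 (SE 0.08, largest adjusted p = 1.54e-07). RPL41, the smallest ribosomal protein, had 122.3, 129.1 and 143.1 CPM in monolayer, 311.7, 369.4 and 287.8 in small spheroids, 209.7, 181.9 and 216.4 in large spheroids, and 349.5, 364.2 and 376.8 in capsules. Its log2 fold changes were 1.30, 0.62 and 1.47 (SE 0.10, largest adjusted p = 3.66e-05), and the capsule value was 0.90 after GC and length correction. Small spheroids and capsules overlapped and large spheroids lay between them and monolayer. RPL35, at the exit of the nascent chain tunnel, rose by 1.07, 0.60 and 1.41, with 249.9 to 284.8 CPM in monolayer and 677.1 to 762.4 in capsules. After GC and length correction its small spheroid rise did not pass (0.15), and the large spheroid and capsule rises were 0.33 and 0.55. RPL10, which completes the large subunit in the cytoplasm, rose by nearly equal amounts of 0.97, 0.91 and 0.90, from 148.8 to 170.5 CPM to a range of 290.2 to 343.3 over the other formats.

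RPL36, with a GC content of 62.1%, rose by 1.12, 0.95 and 0.89, from 89.3 to 101.8 CPM in monolayer to 147.2 to 223.2 elsewhere. After GC and length correction its large spheroid rise of 0.61 passed, and the small spheroid and capsule values were -0.06 and -0.11. RPL3, a large subunit protein, rose by 0.63 and 0.32 in small and large spheroids, and its capsule value of 0.18 did not pass. After correction the small spheroid rise was lost (0.15, adjusted p = 0.102, limma) and the capsule value was -0.18, which passed (adjusted p = 0.0406, limma). RPL10A rose by 0.58, 0.25 and 0.67, the second lost without monolayer 1 (0.22) or large spheroid 3 (0.20) and after correction (0.11). Its small spheroid and capsule rises were 0.21 and 0.17 after correction and still passed. RPL34 had 213.2 to 225.8 CPM in monolayer, 202.4 to 220.1 in small spheroids, 281.2 to 355.5 in large spheroids and 226 to 280.8 in capsules. It rose by 0.48 in large spheroids, and the values of -0.07 and 0.19 in small spheroids and capsules did not pass. After correction the capsule value was -0.20 and passed (adjusted p = 0.011, limma).

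RPL5 was the member that did not differ among formats (adjusted p = 0.446). Its level was 833.3, 853.1 and 875.7 CPM in monolayer, 830.7, 913.5 and 868.3 in small spheroids, 846.5, 924.1 and 1036 in large spheroids, and 965.2, 800.2 and 814.3 in capsules, and the groups overlapped. The log2 fold changes against monolayer were 0.03 ± 0.09, 0.13 ± 0.09 and 0.01 ± 0.09. The fit corrected for GC content and length gave 0.16, 0.11 and -0.17, and there the first and the last passed (adjusted p = 0.0282 and 0.0174, limma). RPL11, its partner in the complex that binds MDM2, had 450.2, 472.3 and 460.5 CPM in monolayer, 624.3, 695.9 and 663.6 in small spheroids, 688.4, 658.4 and 758.7 in large spheroids, and 842.2, 716.7 and 737 in capsules. All 9 libraries lay above monolayer, and RPL11 rose by 0.52, 0.61 and 0.73 (largest adjusted p = 1.92e-05). RPL23, which also binds MDM2, rose by 0.51, 0.51 and 0.73 (largest adjusted p = 0.000164). After GC and length correction RPL23 had 0.98, 0.56 and 0.94. The difference in response between RPL5 and RPL11 was not tested.

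In the small subunit, 27 of 31 members rose in small spheroids and 1 fell, 26 rose and 2 fell in large spheroids, and 29 rose and 1 fell in capsules. RPS21, a small subunit protein, had 305.5, 324.9 and 259.4 CPM in monolayer, 849.9, 1013 and 823 in small spheroids, 555.5, 495.5 and 589.4 in large spheroids, and 756.2, 776.4 and 833.3 in capsules. Monolayer was lowest, large spheroids came next, and the other formats overlapped at the top. The log2 fold changes were 1.59 ± 0.10, 0.88 ± 0.10 and 1.41 ± 0.10 (largest adjusted p = 1.11e-06). After GC and length correction the small spheroid and capsule values were 1.05 and 0.71.

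RPS27, a zinc finger protein of the small subunit, was the one with the largest rise in large spheroids. It had 32.4, 32.9 and 27.9 CPM in monolayer, 61.5, 74.0 and 58.9 in small spheroids, 112.5, 97.7 and 97.2 in large spheroids, and 45.8, 65.1 and 62.0 in capsules. The 3 large spheroid libraries lay above all others and monolayer below all others. The log2 fold changes were 1.06 ± 0.13, 1.72 ± 0.13 and 0.89 ± 0.13 (largest adjusted p = 9.17e-06), and large spheroids exceeded small ones by 0.66 (adjusted p = 0.000145). After GC and length correction the capsule value was 0.29 and did not pass (adjusted p = 0.057).

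RPS26, a protein of the mRNA exit channel, was the one with the largest fall in all 3 formats. It had 40.0, 38.8 and 34.8 CPM in monolayer, 15.6, 14.6 and 13.4 in small spheroids, 15, 13.98 and 13.56 in large spheroids, and 15.9, 16.6 and 19.6 in capsules. No library of the other formats came near monolayer. The log2 fold changes were -1.38 ± 0.11, -1.42 ± 0.10 and -1.12 ± 0.10 (largest adjusted p = 6.25e-08), with -1.37, -1.45 and -1.31 after GC and length correction. RPS26 has 59 pseudogenes in RefSeq, of which 1 was in the table, with 3 to 17 counts a library.

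Other small subunit proteins with further roles mostly rose. RPS6, the S6 kinase substrate, had 1032, 1094 and 1089 CPM in monolayer, 1343, 1484 and 1406 in small spheroids, 1497, 1478 and 1712 in large spheroids, and 1317, 1205 and 1288 in capsules. All 9 libraries lay above monolayer, with log2 fold changes of 0.40, 0.54 and 0.25 (largest adjusted p = 0.00975). The small spheroid value of RPS6 was 0.79 after GC and length correction. RPS19, mutated in Diamond-Blackfan anaemia, rose by 1.095, 0.43 and 1.06, with 0.59 in small spheroids after GC and length correction. RPS27A, made as a fusion with ubiquitin, rose by 0.68, 0.34 and 1.12, and RPS4X, the X-linked form of RPS4, by 0.37, 0.41 and 0.49. With library totals the small spheroid value of RPS4X was 0.21 and did not pass (adjusted p = 0.0675). RPSA, which is also the laminin receptor, had 231.7 to 257.4 CPM in monolayer, 347.1 to 393.1 in small spheroids, 230.3 to 256.9 in large spheroids, and 371.1 to 399.5 in capsules. It rose by 0.59 in small spheroids and 0.67 in capsules, and the large spheroid value of 0.03 did not pass (adjusted p = 0.773) and turned to -0.01 with library totals and -0.04 after correction. Summed with its 2 pseudogene rows, which hold many reads, the small spheroid value was 0.14 and did not pass (adjusted p = 0.194).

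**Figure D3:**
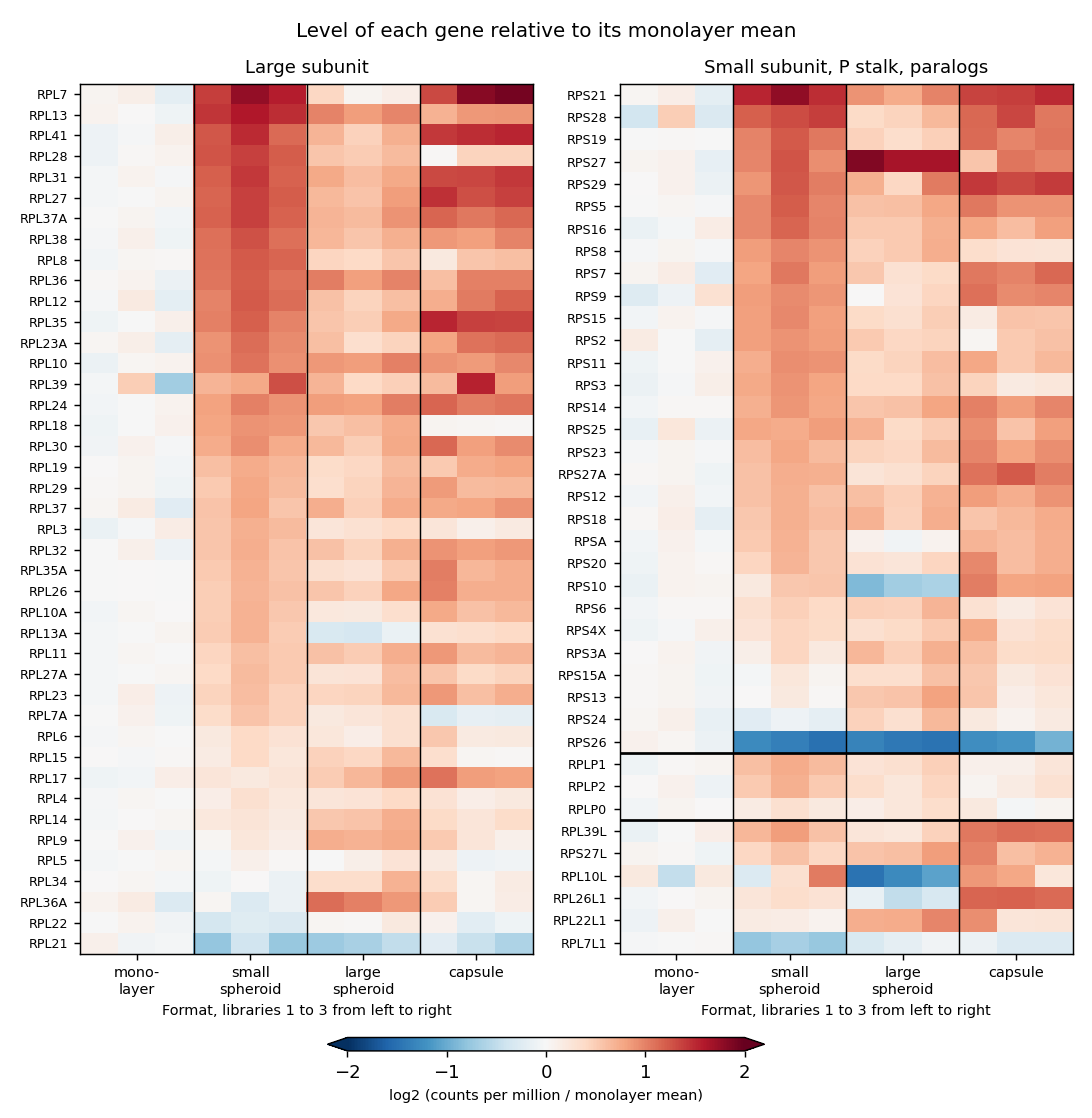
Level of the tested members, apart from those not reported here, in every library relative to its own monolayer mean, in log2 units (red higher, blue lower, colour scale from -2 to 2). Large subunit proteins are on the left, and small subunit proteins, the P stalk and paralogs on the right, each sorted by the small spheroid change. Most genes are red in all 3 formats, RPS26 and RPL21 are blue, and RPL5 stays near white.

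The 3 proteins of the P stalk rose in both spheroid formats, and none of the 3 passed in capsules. RPLP1 had 747.9, 801.3 and 826.6 CPM in monolayer, 1196, 1327 and 1222 in small spheroids, 953.1, 983.7 and 1101 in large spheroids, and 847.7, 852.7 and 940.6 in capsules. It rose by 0.66 and 0.36 in small and large spheroids, and the capsule value of 0.15 did not pass (adjusted p = 0.101), though all 3 capsules lay above monolayer. RPLP2 had 490.6 to 560.7 CPM in monolayer, 759.5 to 867.5 in small spheroids, 619.4 to 711.5 in large spheroids and 549.4 to 651.1 in capsules. Its values were 0.59, 0.34 and 0.18, and RPLP0, the base of the stalk, had 0.23, 0.24 and 0.08. Against small spheroids, capsules were lower by -0.50 for RPLP1 (adjusted p = 6.73e-05) and -0.41 for RPLP2 (adjusted p = 0.000847). RPLP2 has a GC content of 63.6%, and after correction its values turned to -0.69, -0.03 and -0.85. The first and the last passed as falls (adjusted p = 2.78e-07 and 1.38e-08, limma). The capsule value of RPLP2 against small spheroids was then -0.16 and did not pass. RPLP0 turned to -0.13 in small spheroids, which did not pass, and to -0.29 in capsules, which passed (adjusted p = 0.00109, limma). Its large spheroid rise was lost (0.12), and RPLP1 turned to -0.05 in capsules, which did not pass. The RPLP0 rises were lost without monolayer 1 (0.20 and 0.21, adjusted p = 0.0737 and 0.0829), without small spheroid 2 or 3 in small spheroids (0.19 and 0.21), and without small spheroid 3 (0.22) or large spheroid 3 (0.18) in large spheroids. With library totals the small spheroid value was 0.08 and did not pass.

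Paralogs did not move as their standard partners did in each case. RPL26 had 292.9, 297.1 and 291.7 CPM in monolayer, 411.6, 470.5 and 442.3 in small spheroids, 433.2, 404.3 and 502.9 in large spheroids, and 592.3, 488.1 and 488.3 in capsules. It rose by 0.59, 0.60 and 0.83 (largest adjusted p = 3.58e-05). RPL26L1 had 13.6, 14.1 and 14.6 CPM in monolayer, 16.6, 18.0 and 17.3 in small spheroids, 12.8, 10.1 and 11.3 in large spheroids, and 31.7, 31.8 and 31.0 in capsules. Capsules lay above all other libraries and large spheroids below all others. RPL26L1 rose by 0.29 in small spheroids (adjusted p = 0.0158) and 1.16 in capsules (adjusted p = 2.5e-08) and fell by 0.31 in large spheroids (adjusted p = 0.0153). The small spheroid rise was lost without small spheroid 2 or 3 (0.27 and 0.26) and with library totals (0.14), and the fall without monolayer 3 (-0.29) or large spheroid 2 (-0.23). Capsules exceeded large spheroids by 1.47 (adjusted p = 2.26e-09) and small ones by 0.86 (adjusted p = 3.3e-06).

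RPL22 and its paralog RPL22L1 had GC contents of 42.1 and 42.6%. RPL22 had 300.7, 318.5 and 286.9 CPM in monolayer, 237.2, 255.3 and 248.4 in small spheroids, 310.1, 306.7 and 346.1 in large spheroids, and 321.3, 260.4 and 284.3 in capsules. Small spheroids lay below all other libraries, with a fall of 0.29 (adjusted p = 0.00551), but the corrected fit turned this to a rise of 0.25. RPL22L1 had 22.5, 26.1 and 24.1 CPM in monolayer, 27.3, 26.8 and 25.3 in small spheroids, 40.0, 40.7 and 47.8 in large spheroids, and 46.2, 28.7 and 28.9 in capsules. It rose by 0.82 in large spheroids (adjusted p = 0.000123) and 0.51 in capsules (adjusted p = 0.00533), where capsule 1 stood well above its partners. Without capsule 1 the capsule rise was 0.25 and still passed.

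RPL7L1, a nucleolar relative of RPL7, had 126.1, 127.1 and 130.5 CPM in monolayer, 75.1, 80.5 and 76.0 in small spheroids, 103.5, 112.7 and 121.4 in large spheroids, and 117.6, 105.9 and 106.1 in capsules. All 9 libraries lay below monolayer. It fell by 0.73 in small spheroids (adjusted p = 2.89e-07) and 0.22 in capsules (adjusted p = 0.0201), and the large spheroid value of -0.19 did not pass (adjusted p = 0.0512). In the corrected fit the capsule value was 0.04, and the capsule call was lost without monolayer 3 (-0.20) or without capsule 2 or 3 (-0.19 each). RPS27L, a p53 target, rose with RPS27 in each format, by 0.47, 0.68 and 0.78, from 16.3 to 18.0 CPM in monolayer to a highest library of 34.5 in capsules. The small spheroid and capsule rises of RPS27L were 1.08 and 1.21 after correction. RPL39L, a paralog best known from testis, rose by 0.70, 0.30 and 1.09, the second lost without monolayer 1 (0.24) or large spheroid 3 (0.22) and after correction (0.17), and RPL39 itself had 9.60 to 21.9 CPM in monolayer and 20.5 to 45.0 elsewhere. RPL10L, a testis paralog, had 103 counts in all 12 libraries, and its fall of 1.21 in large spheroids (adjusted p = 0.0432) was lost in the runs without monolayer 1 or 3, small spheroid 2, any 1 large spheroid, or capsule 1 or 2, at -1.09 to -1.30.

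**Figure D4:**
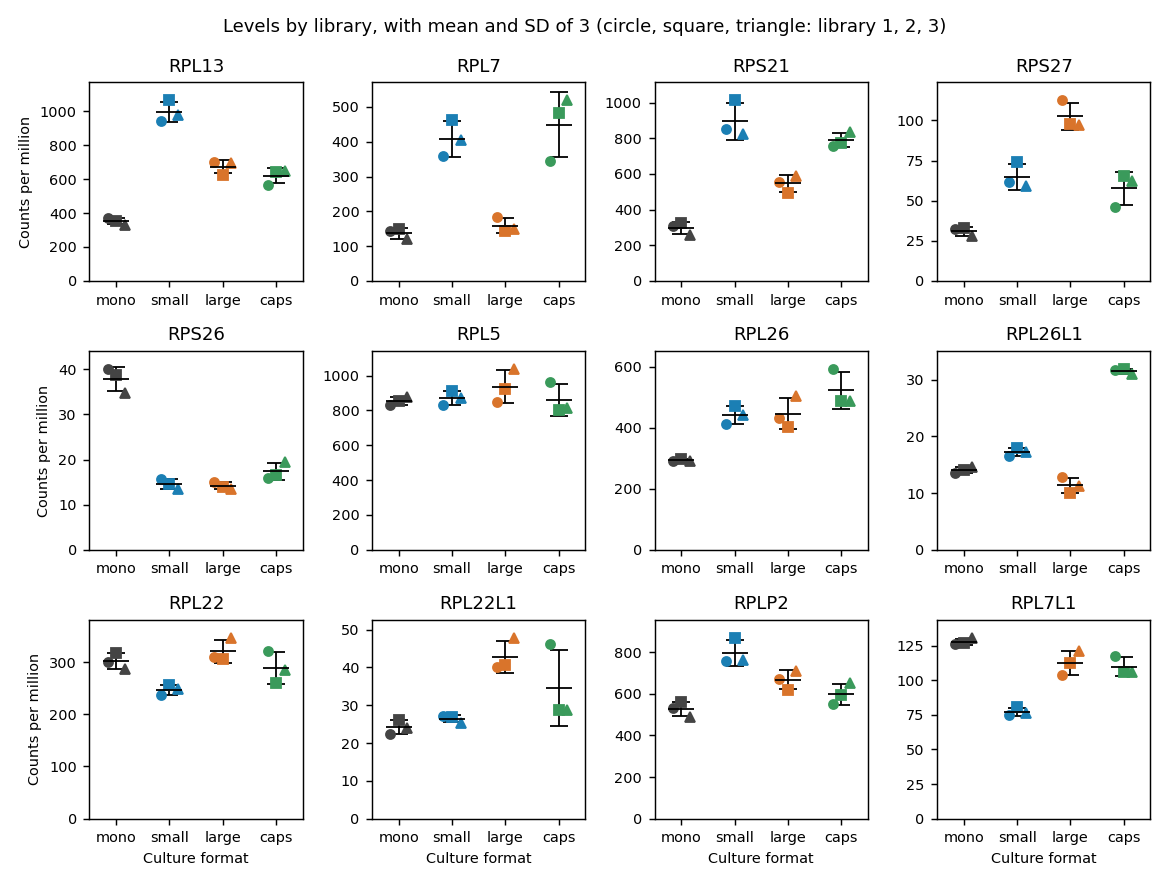
CPM (y axis, from 0) of 12 members by library in the 4 culture formats, with the mean and SD of 3 in black. RPS26 lies at 34.8 to 40.0 in monolayer and at 19.6 or below elsewhere, RPS27 is highest in large spheroids, RPL26L1 in capsules, and RPL5 overlaps in all formats.

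Few other members were lower than in monolayer. RPL21 had 9.06, 8.01 and 8.17 CPM in monolayer, 4.93, 6.44 and 4.97 in small spheroids, 5.10, 5.36 and 5.98 in large spheroids, and 7.21, 6.19 and 5.49 in capsules. It fell by 0.63, 0.62 and 0.41 (largest adjusted p = 0.0209), but it has 137 pseudogenes in RefSeq, and summed with the 1 in the table the values were 0.18 in small spheroids, -0.08 in large spheroids and 0.44 in capsules. Its capsule call was lost without monolayer 1 (-0.36), capsule 2 (-0.40) or capsule 3 (-0.32), and the value was -0.77 after GC and length correction. RPL13A, part of the interferon-regulated GAIT complex, had 196.7 to 211 CPM in monolayer and 160.4 to 185.5 in large spheroids, where it fell by 0.25 (adjusted p = 0.0115), and it rose by 0.58 in small spheroids and 0.35 in capsules. Its row holds fewer reads than that of the pseudogene RPL13AP5, which had 35049 to 56660 counts a library, and summed with its pseudogenes the large spheroid value was 0.17. That fall was lost without large spheroid 1 (-0.22) or 2 (-0.21). It was -0.38 after GC and length correction, where the capsule value was -0.04. RPL7A fell in capsules by 0.22 (adjusted p = 0.0217), from 268.2 to 302.7 CPM to 229.9 to 253.7, and rose by 0.47 and 0.25 in small and large spheroids, with the fall lost without monolayer 2 (-0.17) and the large spheroid rise without monolayer 3 (0.21). Both rises were lost after correction (0.13 each, adjusted p = 0.103 and 0.0925, limma). The capsule fall of RPL7A was larger there (-0.65, adjusted p = 8.51e-08, limma). RPS10 had 632 counts in all, and fell by 0.73 in large spheroids (adjusted p = 0.00413) while it rose by 0.43 and 0.87 in small spheroids and capsules. Its small spheroid rise (adjusted p = 0.0448) was lost in the runs without any 1 monolayer, small spheroid 2 or 3, large spheroid 2, or capsule 2 or 3, at 0.33 to 0.47, and was -0.25 after correction. Its capsule rise was also lost after correction (0.18, adjusted p = 0.41, limma), and its large spheroid fall when summed with pseudogenes (-0.29, adjusted p = 0.134).

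Besides RPL10L, the members with a mean under 10 CPM were RPL21, RPS28, RPS10 and RPL36A. RPS10 and RPL36A also have known readthrough transcripts with a neighbouring gene. RPL36A had 3.17 to 4.27 CPM in monolayer and 6.95 to 8.34 in large spheroids, where it rose by 1.001 (adjusted p = 7.05e-05). Per kilobase of transcript, the 45 members with fewer than 20 RefSeq pseudogenes had a median of 466 CPM and the 38 with 20 or more a median of 283, and rho of level with pseudogene number was -0.09 over 83 members. All 83 share the same 12 libraries, and the sources used here do not say how the authors treated reads that fit several places.

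**Figure D5:**
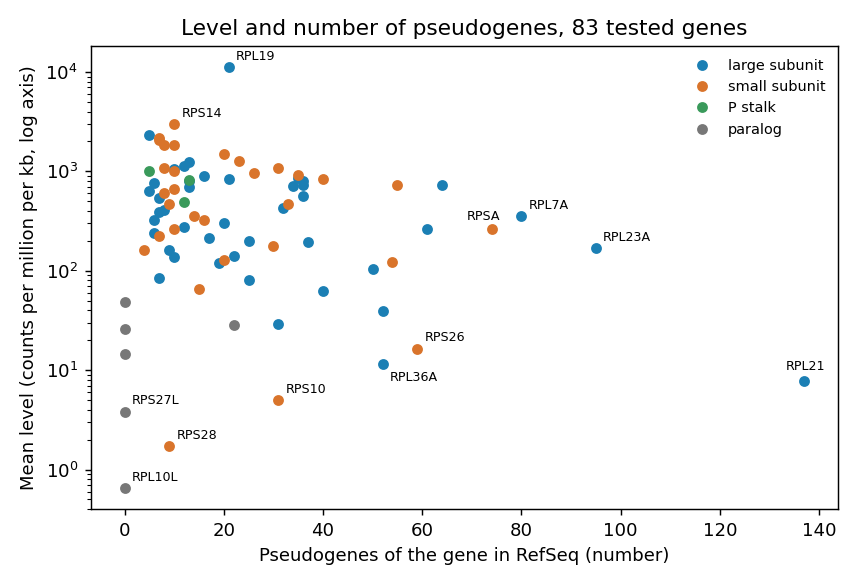
Mean level of each tested member over the 4 formats in CPM per kilobase of transcript (y axis, log scale) against its number of RefSeq pseudogenes (x axis), coloured by role. RPL19 is highest at 11220, and RPL21, with 137 pseudogenes, is among the lowest.

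Between the 3-dimensional formats the members' medians lay closer to 0 than against monolayer. The members named here have a mean of at least 10 CPM, which leaves out larger values of RPL10L, RPS10 and RPL36A. Large spheroids were lower than small ones in 42 members, where 33.4% of all genes were lower, and higher in 14, where 32.9% were, with a median of -0.23. RPL7 (-1.36) and RPL13A (-0.83) were among the lowest, and RPL22L1 (0.69), RPS27 (0.66) and RPS24 (0.65) among the highest. RPS24, a small subunit protein mutated in Diamond-Blackfan anaemia, had 727.3 to 796.1 CPM in small spheroids and 1070 to 1333 in large ones. After GC and length correction 33 were lower and 24 higher, with a median of -0.07, where 25.9% of all genes were lower and 25.7% higher.

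Capsules were higher than small spheroids in 19 members, where 27% of all genes were, and lower in 16, where 25% were, with a median of 0.12. With library totals in place of TMM scaling 38 were higher and 14 lower, where 33.3% of all genes were higher and 19.6% lower. RPL26L1 (0.86), RPL17 (0.68) and RPL7L1 (0.51) were highest. RPL28 (-0.96) and RPL18 (-0.82), with GC contents of 60.6 and 61.1%, were among the lowest. Without small spheroid 1 or 3 the count of higher members was 7, and the share of all genes called in those runs is not given. After GC and length correction 8 were higher and 28 lower, where 24.4% of all genes were higher and 24% lower.

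Capsules were higher than large spheroids in 38 members, where 32.1% of all genes were, and lower in 14, where 30.6% were, with a median of 0.20. RPL7 (1.498) and RPL26L1 (1.47) were among the highest, and RPS27 (-0.83), RPL18 (-0.59) and RPL7A (-0.47) lowest. RPS27, RPL18 and RPL7A had -1.26, -1.06 and -0.78 after GC and length correction. RPL18 had 757.7 to 872.9 CPM in large spheroids and 528 to 544 in capsules, below all of them. In the corrected fit 25 were higher and 34 lower, where 32.3% of all genes were higher and 33% lower, and the median was -0.07.

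Ribosomal proteins whose symbols the rule does not take were mostly higher than in monolayer as well. FAU, made as a fusion with a ubiquitin-like protein, rose by 0.82 in small spheroids, 0.24 in large spheroids and 0.98 in capsules. After GC and length correction FAU passed in capsules (0.25) and had 0.01 in both spheroids, and its large spheroid call was lost without monolayer 1 or 3 or large spheroid 3 (0.20 to 0.22). RPL36AL rose in small spheroids (0.44) and capsules (1.06). RACK1, the scaffold on the small subunit, rose in both spheroids (0.53 and 0.32), the first lost after correction (0.16, adjusted p = 0.0739, limma), and fell in capsules by 0.22 (adjusted p = 0.0327), a call lost without monolayer 3 (-0.15), capsule 2 (-0.16) or capsule 3 (-0.20). After correction the RACK1 fall in capsules was -0.54 (adjusted p = 4.57e-06, limma). In all, 4, 3 and 3 of these 4 were higher, and 1 was lower in capsules.

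Genes of the wider pathway moved in both directions. The counts of each list below are to be read against the shares of all genes, 37% higher and 35.3% lower in small spheroids, 28.7 and 28.4% in large spheroids, and 34.5 and 31.5% in capsules. Of 15 translation factors with TOP mRNAs, 7 were higher and 4 lower in small spheroids, 5 and 3 in large spheroids, and 3 and 9 in capsules, with medians of 0.00, 0.02 and -0.28. EEF1A1, which brings aminoacyl-tRNA to the ribosome, rose by 0.23, 0.23 and 0.35. The first of these was lost without monolayer 1 (0.21) or small spheroid 2 or 3 (0.19 and 0.20), and the second without monolayer 1 or 3, small spheroid 3 or large spheroid 3 (0.16 to 0.22). Scaled by library totals, the first was 0.07 and did not pass. TPT1 rose by 0.38 and 0.34 in small and large spheroids, and its capsule value of 0.14 did not pass. After correction TPT1 had 0.84, 0.42 and 0.47, and the capsule value passed (adjusted p = 5.03e-05, limma). EIF2S3, a subunit of the factor that carries initiator tRNA, fell by 0.68, 0.42 and 0.70, the first lost after correction (-0.11, adjusted p = 0.0807, limma). PABPC1, the poly(A)-binding protein, fell by 1.001 in capsules, from 804.9 ± 39.7 to 402.3 ± 29.9 CPM (adjusted p = 4.39e-09), with -0.07 and 0.05 in small and large spheroids, which did not pass. EEF2, the translocase, rose by 0.61 in small spheroids, which the correction turned to -0.10. It fell by 0.41 in capsules, with -0.27 without capsule 1 and -0.77 after correction.

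Ribosome assembly factors (44 genes) counted 15 higher and 22 lower in small spheroids, 17 and 2 in large spheroids, and 26 and 5 in capsules, with medians of -0.28, 0.18 and 0.30. In the fit corrected for GC content and length the medians were 0.00, 0.18 and 0.42. The rRNA processing factor BOP1 rose by 1.46, 0.56 and 1.43 in small spheroids, large spheroids and capsules, and its partner PES1 by 0.70, 0.66 and 0.85. After correction BOP1 still passed, at 0.28, 0.30 and 0.73, and the capsule rise of PES1 was 0.53. The small spheroid rise of PES1 was lost after correction (0.10, adjusted p = 0.187, limma). NLE1 and MRTO4, both of large subunit assembly, rose by 1.47 and 0.60 in small spheroids, 1.16 and 0.71 in large spheroids and 1.53 and 1.27 in capsules. Their small spheroid values were 0.87 and 0.29 after correction. UTP20, a factor of small subunit assembly, fell by 1.21, 0.62 and 0.29. After correction it had -0.45 and -0.37 in small and large spheroids. Its capsule value was then 0.25, which passed as a rise (adjusted p = 0.00435, limma). The UTP20 capsule call was also lost without monolayer 1 (-0.26), capsule 2 (-0.22) or capsule 3 (-0.25). Among 13 chaperones and importins of ribosomal proteins 4 were higher and 8 lower, 5 and 2, and 6 and 3. Their medians were -0.35, 0.06 and 0.19, and 0.11, 0.16 and 0.36 after correction. TNPO1, an importin, fell by 1.202 in small spheroids and had -0.18 and -0.26 in large spheroids and capsules, which did not pass. Its small spheroid value was -0.63 after correction. GRWD1, a chaperone of RPL3, rose by 0.48 in small spheroids, with -0.12 after correction, and by 0.81 in capsules. Of 16 genes of RNA polymerase I and its factors 3 were higher and 7 lower, 6 and 1, and 7 and 4, and UBTF, which binds rDNA, rose by 1.02, 1.11 and 0.90. After correction UBTF had 0.63, 1.02 and 0.72. POLR2L, a subunit shared by the nuclear RNA polymerases, rose by 1.47 in small spheroids and 1.60 in capsules, and its large spheroid value of 0.29 did not pass (adjusted p = 0.0602). The rises of POLR2L were 0.54 and 0.85 after correction.

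Of 12 hosts of small nucleolar RNAs, noncoding genes whose RNAs often carry a TOP motif, 6 were higher and 2 lower in small spheroids, 9 and 0 in large spheroids, and 6 and 5 in capsules. Their medians were 0.23, 0.71 and 0.09, and 0.16, 0.63 and -0.25 after GC and length correction. GAS5 rose from 89.1 ± 9.81 to 233.3 ± 13.9 CPM in large spheroids (1.39, adjusted p = 4.48e-09), rose by 0.32 in small spheroids, lost without monolayer 3 (0.24) and with library totals (0.17), and fell by 0.34 in capsules. After correction the GAS5 fall in capsules was -0.72. Of 17 genes of mTORC1 and TOP mRNA control 7 were higher and 4 lower, 4 and 5, and 4 and 7. The mTORC1 inhibitor DDIT4 rose by 1.29 in small spheroids and by 1.89 in large spheroids, from 267 ± 36.2 to 987.5 ± 27 CPM, and its capsule value of 0.10 did not pass. After correction DDIT4 had 0.67, 1.75 and -0.29, and the last passed as a fall (adjusted p = 0.00807, limma). LARP1, which binds TOP mRNAs, fell by 0.30 in capsules, by 0.16 without capsule 1, and did not pass after correction (-0.15, adjusted p = 0.0646, limma). It had 0.03 and -0.14 in small and large spheroids, which did not pass. EIF4EBP1, the inhibitor of cap-dependent initiation, rose by 1.53, 1.52 and 0.87, with 0.20 (not passed), 1.16 and -0.08 after correction, and RPS6KB1, an S6 kinase, fell by 1.28, 0.83 and 0.87. The corrected values of RPS6KB1 were -0.21, -0.57 and -0.27, all of which passed. Mitochondrially encoded genes, whose proteins are made on other ribosomes, took 4.32 to 4.9% of counts in monolayer, 4.43 to 5.33% in small spheroids, 4.16 to 4.48% in large spheroids and 2.54 to 2.73% in capsules.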

How the data were processed

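RNA was extracted with TRIzol and sequenced from Illumina TruSeq libraries, per the labels' protocols. The authors deposited raw read counts per gene for 12 libraries; the submitters' processing notes name featureCounts and limma with no role, per the file headers the counting used subread alignments, and the build is hg38. The sources used here do not say how reads with several matches were treated. The column of capsule 1 is spelled with the full word, unlike its partners, and was matched by format and number. Rows without a symbol (164, 0.0705% of counts) could not be members. They were kept in the library totals and went through the same filter and fits.

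Counts were scaled by TMM and tested with edgeR 4.0.16 (R 4.3.3, quasi-likelihood, filterByExpr with a minimum count of 10) in 1 fit of all 12 libraries, with 6 pairwise comparisons and a test among the 4 formats. P-values were adjusted by Benjamini-Hochberg over 15175 genes, and genes below 0.05 were called. CPM of single genes are read counts relative to the TMM-scaled library size, on edgeR's usual scale, and shares and marker sums are relative to the library total. A second fit corrected log2 CPM for GC content and transcript length (GENCODE 29) by loess (span 0.3) and used limma 3.58.1 on 14638 genes. Other scalings, DESeq2 1.42.0, limma-voom, no filter, replicate blocks, pseudogene sums and leaving out each library were alternatives. The scripts were tested on simulated data.

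Members and lists were chosen with earlier results of these data known. Named against monolayer were the 5 highest and 5 lowest members with at least 10 CPM in the higher format, and 3 each way in the other comparisons, besides a fixed list of members and all paralog pairs. From the pathway lists, a fixed list and some of the 2 genes with the smallest adjusted p in each were named, and the choice among these was made with their values known. NLE1, PES1 and others picked in 1 comparison are given in all 3. Some genes that the rule picks are not reported here, but they are included in the counts, medians and shares.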

Additional observations from a re-analysis of the deposited data

How the results depend on the processing

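Most results of single genes kept their sign and call under each alternative, but the GC and length correction moved many values. Of 163 named calls it ended 19, changed the sign of 13, and moved 54 by over 1.5 times that stayed called, 14 of them to a value larger in size. Against monolayer, the count of higher members stayed within 1.5 times of 69, 69 and 67 under all alternatives run. In capsules the correction gave 46 in place of 67, with a median of 0.27 in place of 0.73. The largest shifts came from the GC and length correction (limma): members lower than in monolayer numbered 8 in small spheroids and 17 in capsules, 24 were higher in large than in small spheroids, 8 were higher and 28 lower in capsules than in small spheroids, and 25 were higher and 34 lower in capsules than in large spheroids. Single genes that changed sign under it in small spheroids against monolayer were RPLP0 (-0.13), RPLP2 (-0.69), RPS10 (-0.25), RPL22 (0.25), EEF2 (-0.10), RPL36 (-0.06) and GRWD1 (-0.12). In large spheroids they were RPSA (-0.04) and RPLP2 (-0.03). In capsules they were RPL5 (-0.17), RPLP0 (-0.29), RPLP1 (-0.05), RPLP2 (-0.85), RPL7L1 (0.04), RPL13A (-0.04), UTP20 (0.25), DDIT4 (-0.29), EIF4EBP1 (-0.08), RPL36 (-0.11), RPL3 (-0.18) and RPL34 (-0.20). With the new sign RPLP2 and RPL22 passed in small spheroids, and RPL5, RPLP0, RPLP2, UTP20, DDIT4, RPL3 and RPL34 in capsules. The cause was not tested. With library totals in place of TMM, 38 members were higher in capsules than in small spheroids, and the median of all genes moved to -0.14 in small spheroids against monolayer, 0.11 in large against small spheroids and 0.12 in capsules against small spheroids. Library totals ended the small spheroid calls of RPS4X (0.21), RPLP0 (0.08), RPL26L1 (0.14), RPS10 (0.27), GAS5 (0.17) and EEF1A1 (0.07) and turned RPL5 (-0.13 in small spheroids, -0.04 in capsules), LARP1 (-0.12 in small spheroids) and RPSA (-0.01 in large spheroids), and DESeq2 turned RPL5 in capsules (-0.01 by its size factors and by its Wald test). Summing members with their pseudogenes left 3 members lower in large spheroids and gave RPL21 0.18 in small spheroids and 0.44 in capsules, and RPSA -0.03 and RPL13A 0.17 in large spheroids. Same-numbered libraries correlated at -0.215 to 0.217 in their deviations from the format means, and 6 of 12 correlated best with their own number, so the numbers were not taken to pair the libraries. Between monolayer and large spheroids these correlations were positive at each number (0.089, 0.154 and 0.217). In both formats cardiac markers were high in libraries 1 and 2, and a pairing within these formats was not tested. With replicate number as a block, 10 members were higher in capsules than in small spheroids instead of 19, and no other count moved by over 1.5 times. Leaving out 1 library at a time gave 7 to 24 members higher in capsules than in small spheroids (7 without small spheroid 1 or 3), 3 to 6 lower in large spheroids than in monolayer (3 without large spheroid 2) and 2 to 4 lower in capsules (2 without capsule 2 or 3). The shares of all genes called are not given for the block fit, for the pseudogene sums or for the runs with 1 library left out. Values that had not passed ranged over 0 in these runs: RPL5 from 0.00 to 0.07 in small spheroids and from -0.08 to 0.06 in capsules (with -0.01 without monolayer 1 and -0.03 without small spheroid 3), RPSA from 0.00 to 0.08 in large spheroids, LARP1 from -0.01 to 0.05 in small spheroids, and DDIT4 from -0.01 to 0.26 in capsules. The share of counts with pseudogenes was 4.11, 5.94, 5.46 and 5.97% in monolayer, small spheroids, large spheroids and capsules, and without RPL19, an alternative chosen after seeing the data, 3.11, 4.57, 4.22 and 4.49%. With TMM-scaled library sizes it was 3.57% in monolayer and 5.82% in small spheroids. Depth limits RPL10L, RPS28, RPS10 and RPL36A most.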
